A study of Mus musculus with 12 samples.

Results

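The DnaJ (Hsp40) family holds the co-chaperones that carry a J domain and bring client proteins to Hsp70 chaperones. Its members were the rows of the deposited count table that were protein-coding and whose symbol began with Dnaja, Dnajb or Dnajc and a number, 45 of 56748 genes. Bulk kidney RNA of C57bl/6 wild-type mice was sequenced in 12 libraries, 4 in each of 3 groups, and every mouse had received cisplatin, an anticancer drug that injures the renal tubule. The pFUS_UC group had cisplatin, pulsed focused ultrasound and mesenchymal stem cells (MSC) taken from umbilical cord, the UC group had cisplatin with such cells, and the AKI group, whose name stands for acute kidney injury, had cisplatin alone. No uninjured kidneys and no kidneys given ultrasound without cells were analysed here, and the sources used here do not give age, sex, cell dose, ultrasound setting or time of sampling. The labels do not say that the samples of a group came from separate animals, so p-values measure the spread between these samples, which may be partly technical.

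The J domain docks on Hsp70 and makes it split ATP, which closes Hsp70 on its client, and nucleotide exchange factors then reopen it. Class A members have a J domain, a glycine/phenylalanine-rich stretch and a zinc finger, class B members lack the zinc finger, and class C members share little with the others beyond the J domain. Each cell compartment has its own members working with its own Hsp70: Hspa8 and Hspa1a/b in the cytosol, Hspa5 (BiP) in the endoplasmic reticulum (ER) and Hspa9 (mortalin) in mitochondria. In the kidney the family is known for human DNAJB11 variants that cause a form of polycystic kidney disease.

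The libraries held between 17.3 and 25.2 M (mega) counts each. Levels of a gene are given as counts per 1000000 (CPM) scaled by TMM, a correction for library composition. In such a library a count of 0 would allow up to 0.119 to 0.173 CPM before that scaling (3 counts, counting error only). The sample codes of the AKI libraries are written in another form than those of the other groups, so library handling cannot be told apart from the effect of group in any comparison with AKI. Between the groups with cells and AKI several library properties differed together. Transcripts of the mitochondrial genome took 12.3 ± 3.67% of counts in pFUS_UC, 14.2 ± 5.17% in UC and 5.0 ± 1.88% in AKI (SD, n = 4 each), with the highest shares in UC replicates 1 and 2 (18.6% each). Summed podocyte markers stood at 192 to 301 CPM in pFUS_UC, 116 to 249 CPM in UC and 668 to 1022 CPM in AKI, summed endothelial markers at 113 to 168, 68.8 to 164 and 326 to 506 CPM in the same order of groups, and summed matrix and fibroblast markers at 143 to 183, 70.9 to 190 and 289 to 719 CPM. All 6 podocyte and all 6 matrix markers fell in both comparisons with AKI, as did 6 of 6 endothelial markers in UC and 5 of 6 in pFUS_UC. Proximal tubule markers, which define the main cell type of the kidney cortex, summed to 8802 to 9979 CPM in pFUS_UC, 6174 to 9190 CPM in UC and 8992 to 14711 CPM in AKI, and 4 of 8 fell in pFUS_UC and 5 of 8 in UC. Macrophage markers summed to 121 to 151, 66.7 to 153 and 85.2 to 156 CPM in the same order, and 1 of 6 fell in pFUS_UC and 2 of 6 in UC. None of the 32 markers was at 0 in any library. Over protein-coding genes, the rank correlation of gene length with a library's deviation from the mean log2 CPM of all libraries was -0.244 to 0.011 in pFUS_UC, where replicate 1 was highest and the others were at most -0.176, -0.209 to -0.130 in UC and 0.157 to 0.377 in AKI. The mitochondrial share, the length trend and the podocyte, endothelial and matrix sums separated AKI from both groups with cells without overlap, whereas the macrophage and proximal tubule sums overlapped those of AKI in both comparisons. The part of these properties in the DnaJ results was not tested, and in bulk tissue fewer cells of a type and less RNA per cell cannot be told apart.

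Compared with AKI, about as large a share of the tested DnaJ genes changed as of genes at large, with both directions counted together. In both comparisons the 3 tested vesicle genes and 4 of the 5 ER membrane genes fell, the mitochondrial genes Dnajc19 and Dnajc15 rose and Dnaja3 fell, and 13 of 17 cytosolic and nuclear genes did not pass the test. No test between compartments was made. A filter on low counts kept 41 of the 45 members among 16947 tested genes. At an adjusted p under 0.05 (edgeR's quasi-likelihood test, Benjamini-Hochberg over all tested genes), 20 of the 41 were called in UC against AKI, 7 higher and 13 lower, against 48.4% of all tested genes (24.1% higher, 24.3% lower). In pFUS_UC against AKI 18 were called, 7 higher and 11 lower, against 44.0% of all tested genes (21.9% higher, 22.1% lower). Over the tested protein-coding genes alone, the split was 21.0% higher and 27.9% lower in UC, and 19.0% higher and 25.4% lower in pFUS_UC. The shares of members called in either direction, 48.8% in UC and 43.9% in pFUS_UC, were close to those of all tested genes. By direction, 17.1% of the members were higher and 31.7% lower in UC, and 17.1% higher and 26.8% lower in pFUS_UC. The difference from the backgrounds by direction was not tested. Libraries did not overlap with AKI in CPM for 43.9% of the tested members in UC and 46.3% in pFUS_UC. Over all tested genes these shares were 41.7% and 40.8%, so a lack of overlap with AKI was common at large. The members' median log2 fold change was -0.058 in UC against AKI and -0.035 in pFUS_UC against AKI, beside 0.031 and 0.025 over all tested genes and -0.060 and -0.055 over the tested protein-coding genes. Without UC replicates 1 and 2, 12 members were called in UC against AKI; the calls of Dnajb9, Dnajc2, Dnajc3, Dnajc4, Dnajc7, Dnajc10, Dnajc14 and Dnajc25 ended, with adjusted p from 0.0582 to 0.281. Both comparisons use the same 4 AKI libraries, so the values are given side by side and one is not a check of the other.

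**Figure D1:**
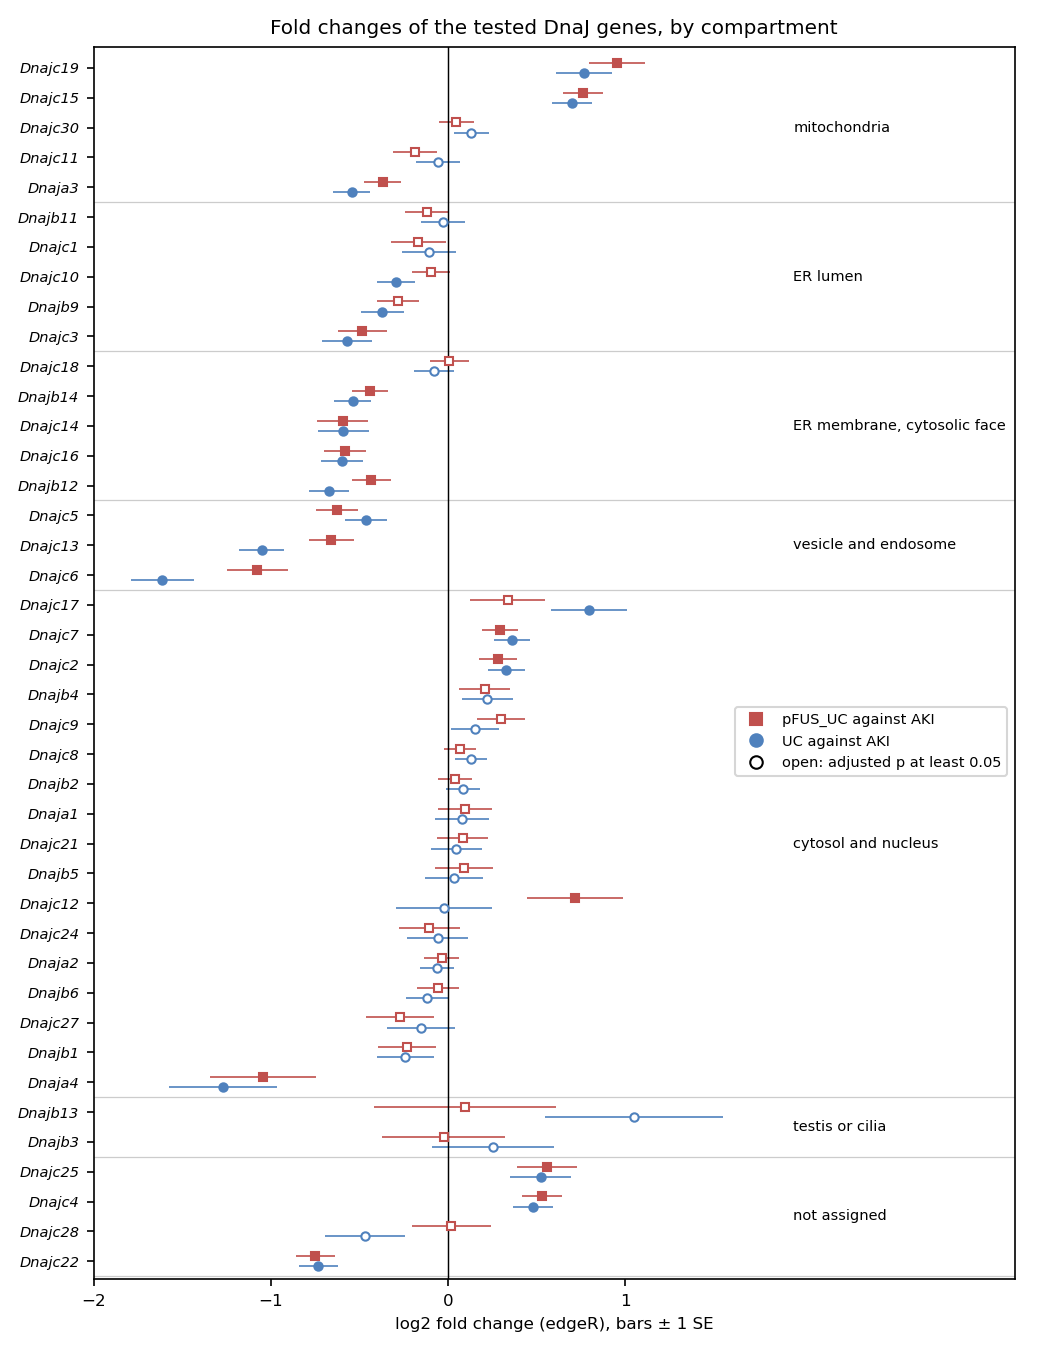
Log2 fold change of each of the 41 tested DnaJ genes (x axis, edgeR, bars ± 1 SE) by compartment, with red squares for pFUS_UC against AKI and blue circles for UC against AKI; filled symbols have an adjusted p under 0.05. Among the filled symbols, Dnajc6 and Dnaja4 lie far to the left and Dnajc19 and Dnajc15 to the right, and the filled symbols of the ER and vesicle groups are all left of 0.

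By structural class, the genes called in classes A and B were lower in both comparisons. Under 2 alternatives a class B gene was called higher: Dnajb4 with an offset that fits a gene length trend in each library (0.47, adjusted p = 0.00912 in UC; 0.40, adjusted p = 0.0230 in pFUS_UC), and Dnajb13 in UC without UC replicate 4 (1.32, adjusted p = 0.0314). In class A, 2 of 4 tested genes (Dnaja3 and Dnaja4) fell in both UC and pFUS_UC against AKI, and the class medians were -0.30 in UC and -0.20 in pFUS_UC. In class B, 3 of 11 tested genes fell in UC (Dnajb9, Dnajb12 and Dnajb14) and 2 of 11 in pFUS_UC (Dnajb12 and Dnajb14), with medians of -0.027 in UC and -0.058 in pFUS_UC. In class C, 7 of 26 tested genes rose and 8 fell in UC, and 7 rose and 7 fell in pFUS_UC, with medians of -0.057 in UC and 0.014 in pFUS_UC. Among all tested genes 24.3% were lower in UC and 22.1% in pFUS_UC, and the class B shares of 27.3% and 18.2% lay near these. No test between the classes was made, and class A has only 4 genes.

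Summed over a compartment, DnaJ transcripts were lower in kidneys with cells in the vesicle and ER groups and were not lower in the mitochondrial and cytosolic groups. The vesicle and endosome genes summed to 180.2 ± 19.8 CPM in pFUS_UC, 168 ± 10.7 CPM in UC and 288 ± 10.7 CPM in AKI (SD, n = 4 each). The ER membrane genes whose J domain faces the cytosol summed to 202 ± 18.5 CPM in pFUS_UC, 187 ± 14.6 CPM in UC and 274 ± 11.1 CPM in AKI, and the ER lumen genes to 339.6 ± 32, 328 ± 31.3 and 408 ± 17 CPM in the same order. In these 3 groups every library with cells lay below every AKI library. Among single genes, 41.7% of all tested genes showed no overlap with AKI in UC and 40.8% in pFUS_UC. The mitochondrial genes summed to 374 ± 23.4 CPM in pFUS_UC, 354 ± 25.1 CPM in UC and 334 ± 18.1 CPM in AKI, and the cytosolic and nuclear genes to 845 ± 57.1, 797 ± 17.6 and 770.2 ± 39.8 CPM in the same order, with overlapping libraries. Genes were placed in compartments by the known site of their proteins, not from these data. These sums are weighted towards the most abundant members and are given without a test.

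**Figure D2:**
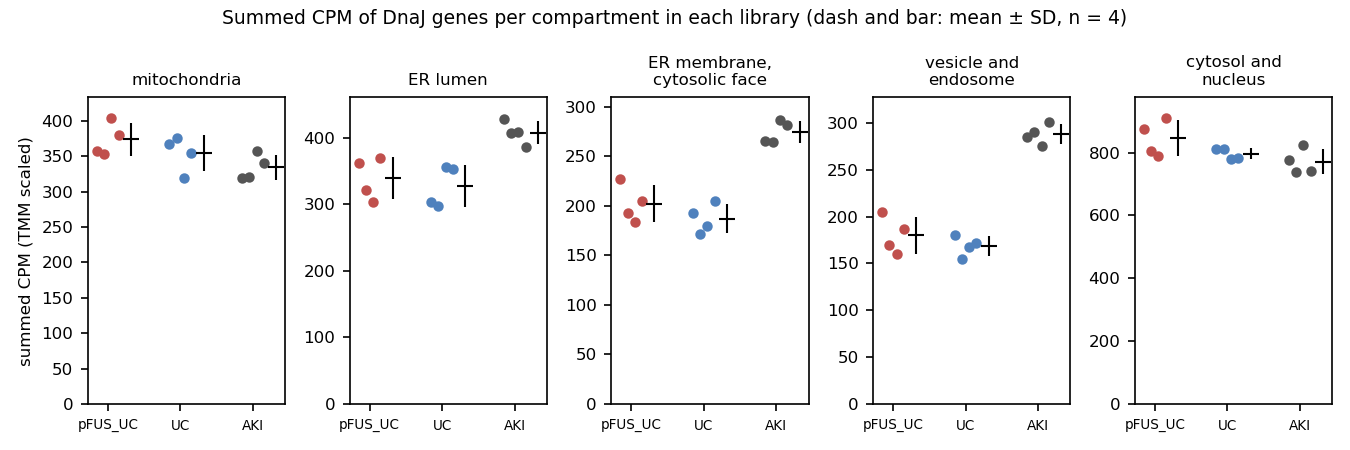
Summed CPM of the DnaJ genes of 5 compartments (y axis, from 0) in each library of pFUS_UC, UC and AKI; points are libraries, dash and bar are mean ± SD (n = 4). The AKI libraries lie above all others for the ER lumen, the ER membrane and vesicles. For mitochondria and the cytosol they overlap the others and have the lowest mean.

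All 3 tested DnaJ genes of vesicles and endosomes fell and passed in both comparisons with AKI, where 24.3% of all tested genes were lower in UC and 22.1% in pFUS_UC. Dnajc6 (ENSMUSG00000028528; GRCm39 chr4:101353828-101499996, plus strand) encodes auxilin, which recruits Hsp70 to strip clathrin from vesicles. It had 16.5, 10.1, 11 and 14.5 CPM in pFUS_UC kidneys, 8.29, 10.3, 7.04 and 10.4 CPM in UC kidneys and 29.5, 24.4, 26.9 and 29.4 CPM in AKI kidneys. Every AKI library was above every library with cells, by more than the spread within a group. The log2 fold change was -1.61 (SE 0.18, adjusted p = 3.85e-05) in UC against AKI, a fold of 0.327, and -1.08 (SE 0.17, adjusted p = 0.000422) in pFUS_UC against AKI, a fold of 0.474. Dnajc13 (ENSMUSG00000032560; chr9:104028481-104140129, minus strand), the endosomal sorting factor RME-8, had 88, 70, 67.5 and 84.6 CPM in pFUS_UC kidneys, 55.4, 60.4, 48.3 and 72 CPM in UC kidneys and 125, 121, 119 and 126 CPM in AKI kidneys. The AKI values lay close together and the groups with cells did not reach them. Its log2 fold change was -1.05 (SE 0.13, adjusted p = 5.66e-05) in UC and -0.66 (SE 0.13, adjusted p = 0.00126) in pFUS_UC against AKI. Dnajc5, the cysteine string protein of secretory vesicles, had 81.2 to 100.3 CPM in pFUS_UC, 84.1 to 117 CPM in UC and 130.4 to 146 CPM in AKI, again without overlap with AKI. It changed by -0.46 (SE 0.12, adjusted p = 0.00655) in UC and -0.63 (SE 0.12, adjusted p = 0.00126) in pFUS_UC. The gene length offset brought the UC value of Dnajc5 to -0.26 (adjusted p = 0.0959). The 2 other genes of this group, Dnajc5b and Dnajc5g, were not tested: Dnajc5b had 5 counts over the 12 libraries and Dnajc5g had 0.

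Of the 5 genes for ER membrane proteins with a J domain on the cytosolic side, 4 fell in both comparisons with AKI: Dnajb12, Dnajb14, Dnajc14 and Dnajc16 (24.3% of all tested genes were lower in UC and 22.1% in pFUS_UC). Dnajb12 and Dnajb14 are related proteins that work with cytosolic Hsp70 on misfolded membrane proteins. Dnajb12 (ENSMUSG00000020109; chr10:59715378-59735124, plus strand) had 80.3, 66.6, 70.2 and 74.5 CPM in pFUS_UC kidneys, 64.5, 57.5, 54.6 and 70.2 CPM in UC kidneys and 86, 92.7, 108 and 107 CPM in AKI kidneys. Its lowest AKI value was above its highest value in either group with cells. The log2 fold change was -0.67 (SE 0.11, adjusted p = 0.000377) in UC against AKI and -0.43 (SE 0.11, adjusted p = 0.00741) in pFUS_UC against AKI. Dnajb14 averaged 28.9 ± 2.34 CPM in pFUS_UC, 27 ± 0.918 CPM in UC and 39.1 ± 4.68 CPM in AKI (SD, n = 4 each), and it changed by -0.54 (SE 0.10, adjusted p = 0.001) in UC and -0.44 (SE 0.10, adjusted p = 0.00433) in pFUS_UC. Neither gene had a library with cells that reached the AKI values. With the gene length offset the pFUS_UC value of Dnajb14 was -0.22 (adjusted p = 0.0726).

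Dnajc14, an ER protein that takes part in the export of membrane receptors, had 54.8, 41.7, 33.3 and 41.9 CPM in pFUS_UC kidneys, 43.5, 34, 45.9 and 48.8 CPM in UC kidneys and 64, 68.8, 60.6 and 66 CPM in AKI kidneys. Dnajc16, an ER protein linked to the size of autophagosomes, had 35.3, 26.8, 29.4 and 27.9 CPM in pFUS_UC kidneys, 29.4, 25.7, 31.3 and 31.7 CPM in UC kidneys and 40.7, 40.7, 49.2 and 48.1 CPM in AKI kidneys. For both genes each AKI library exceeded each library of the other groups. Dnajc14 changed by -0.59 (SE 0.15, adjusted p = 0.00483) in UC and -0.59 (SE 0.15, adjusted p = 0.00538) in pFUS_UC, and Dnajc16 by -0.60 (SE 0.12, adjusted p = 0.00111) in UC and -0.58 (SE 0.12, adjusted p = 0.00168) in pFUS_UC. Without UC replicates 1 and 2, the UC value of Dnajc14 was -0.46 (adjusted p = 0.0582). Dnajc18 did not pass the test, with 25.3 to 30.4 CPM in pFUS_UC, 22.4 to 27.2 CPM in UC and 24.4 to 30.7 CPM in AKI and log2 fold changes of -0.076 (adjusted p = 0.598) in UC and 0.0089 (adjusted p = 0.955) in pFUS_UC.

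In the ER lumen, where the J domain meets Hspa5, 3 of 5 genes fell in UC (Dnajc3, Dnajb9 and Dnajc10) and Dnajc3 fell in pFUS_UC, against the same shares of 24.3% and 22.1% lower over all tested genes. Dnajc3 (ENSMUSG00000022136; GRCm39 chr14:119175388-119219109, plus strand), also called P58IPK, holds unfolded clients for Hspa5 and is a target of the unfolded protein response. Of 5 short motifs searched on both strands, from 250 bases before to 50 after the start of each gene, its promoter held the ER stress element, which is CCAAT and CCACG with 9 bases of any kind between them. It occurred in 0.1369% of 27025 genes with a RefSeq promoter window and in 1 of the 37 members that had a window. The Hspa5 promoter held it as well, and both sequences are shown because the genes encode a co-chaperone and the chaperone it serves. The stretches are 150 bases long and end at the base before the annotated start (RefSeq, GRCm38.p6; Dnajc3 at chr14:118937782-118937931, plus strand; Hspa5 at chr2:34771940-34772089, plus strand), in 5′ to 3′ order, with the match in capitals.
Dnajc3: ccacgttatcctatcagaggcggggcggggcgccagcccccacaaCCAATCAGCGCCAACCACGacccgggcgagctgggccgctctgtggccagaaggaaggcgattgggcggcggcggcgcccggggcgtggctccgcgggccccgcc
Hspa5: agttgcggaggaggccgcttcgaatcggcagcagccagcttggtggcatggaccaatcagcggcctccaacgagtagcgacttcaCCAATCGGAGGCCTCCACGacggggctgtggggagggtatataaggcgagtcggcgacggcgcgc

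Dnajc3 had 132, 97.8, 92.5 and 129 CPM in pFUS_UC kidneys, 92, 101, 113 and 118 CPM in UC kidneys and 176, 155, 165 and 134 CPM in AKI kidneys. The highest pFUS_UC value came close to the lowest AKI value without crossing it. Its log2 fold change was -0.57 (SE 0.14, adjusted p = 0.00458) in UC against AKI and -0.48 (SE 0.14, adjusted p = 0.013) in pFUS_UC against AKI, and without UC replicates 1 and 2 the UC value was -0.45 (adjusted p = 0.0684). Hspa5, the ER Hsp70 itself, averaged 320.5 ± 58.8 CPM in pFUS_UC, 353 ± 55.3 CPM in UC and 537 ± 96 CPM in AKI, and it fell, with log2 fold changes of -0.60 (SE 0.17, adjusted p = 0.00957) in UC and -0.75 (SE 0.17, adjusted p = 0.00336) in pFUS_UC. Without UC replicates 1 and 2 the UC value of Hspa5 was -0.50 (adjusted p = 0.0888). The motif match describes the letters of these windows and says nothing of binding in these kidneys.

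Dnajb9, also called ERdj4, is induced by the unfolded protein response and restrains its sensor Ire1. It had 34.1, 32.6, 29 and 33.8 CPM in pFUS_UC kidneys, 32.5, 25.5, 33 and 30.7 CPM in UC kidneys and 43.3, 43.9, 32.6 and 37.9 CPM in AKI kidneys. The AKI group overlapped both others through its replicate 3. The log2 fold change was -0.37 (SE 0.12, adjusted p = 0.0211) in UC, and -0.28 (SE 0.12, adjusted p = 0.0696) in pFUS_UC, which did not pass. The UC call ended without AKI replicate 1 (adjusted p = 0.0503), AKI replicate 2 (0.0641) or UC replicate 2 (0.0654), and Dnajb9 was called in pFUS_UC without AKI replicate 3 (adjusted p = 0.0249) and with the gene length offset (-0.43, adjusted p = 0.0137). Dnajc10, an ER reductase of disulfide bonds known as ERdj5, changed by -0.29 (SE 0.11, adjusted p = 0.0362) in UC and -0.094 (SE 0.11, adjusted p = 0.501) in pFUS_UC. Its UC call ended without any one of AKI replicates 1, 2 and 4 and UC replicates 1, 2 and 3 (adjusted p from 0.0548 to 0.104), with no filter (0.0572), with only the groups compared (0.0726) and with the gene length offset (-0.19, adjusted p = 0.159). Dnajb11 (ERdj3), the ER member linked to polycystic kidney disease, had 73.6 to 97.6 CPM in pFUS_UC, 75.5 to 102 CPM in UC and 83.1 to 107 CPM in AKI and did not pass, at -0.027 (adjusted p = 0.871) in UC and -0.12 (adjusted p = 0.447) in pFUS_UC. Dnajc1, whose J domain lies in the lumen near ribosomes docked on the ER, also missed the threshold, at -0.11 (adjusted p = 0.584) and -0.17 (adjusted p = 0.398).

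In mitochondria, the related inner membrane genes Dnajc19 and Dnajc15 rose, Dnaja3 fell, and Dnajc11 and Dnajc30 did not pass in either comparison with AKI. Of these 5 genes, 40% rose and 20% fell in each comparison. Over all tested genes 24.1% rose and 24.3% fell in UC, and 21.9% rose and 22.1% fell in pFUS_UC. Dnajc19 (ENSMUSG00000027679; chr3:34110169-34135470, minus strand) encodes the J protein of the import motor, which stimulates Hspa9 as it pulls proteins into the matrix. It had 94.8, 108, 124 and 108 CPM in pFUS_UC kidneys, 101, 124, 67.4 and 90.7 CPM in UC kidneys and 63.5, 53.7, 55.7 and 51.4 CPM in AKI kidneys. All AKI values were below all others, and UC replicate 3 was the lowest library with cells. The log2 fold change was 0.77 (SE 0.16, adjusted p = 0.00151) in UC against AKI, a fold of 1.70, and 0.96 (SE 0.16, adjusted p = 0.000497) in pFUS_UC against AKI, a fold of 1.94. Dnajc15 (ENSMUSG00000022013; chr14:78058121-78112565, minus strand), a close relative of Dnajc19 known as MCJ that restrains respiratory complex I, had 51.2, 60.9, 71.1 and 64.3 CPM in pFUS_UC kidneys, 63.3, 64.7, 53.5 and 56.2 CPM in UC kidneys and 38.8, 33.2, 35.2 and 38.7 CPM in AKI kidneys. It too showed no overlap with AKI, and it rose by 0.70 (SE 0.11, adjusted p = 0.000315) in UC and 0.76 (SE 0.11, adjusted p = 0.000273) in pFUS_UC. These rises stood beside the higher share of counts from the mitochondrial genome given above, which is transcribed apart from these nuclear genes; whether the values are linked was not tested.

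Dnaja3 (ENSMUSG00000004069), the class A protein of the matrix known as Tid1, had 92.7 to 119 CPM in pFUS_UC, 88.4 to 105 CPM in UC and 123 to 144 CPM in AKI. Its AKI libraries were all above the others. It fell, with log2 fold changes of -0.54 (SE 0.10, adjusted p = 0.000997) in UC and -0.37 (SE 0.10, adjusted p = 0.012) in pFUS_UC. Hspa9, its Hsp70 partner, changed by -0.39 (SE 0.15, adjusted p = 0.0441) in UC and -0.44 (SE 0.15, adjusted p = 0.029) in pFUS_UC. For Hspa9 the pFUS_UC libraries (371 to 619 CPM) overlapped AKI (572 to 680 CPM), and the UC libraries (450 to 550 CPM) did not. The calls of Hspa9 were not examined under the alternatives. Dnajc11, which helps to organise cristae, was at -0.056 (adjusted p = 0.733) in UC and -0.19 (adjusted p = 0.239) in pFUS_UC, and Dnajc30, of the inner membrane, at 0.13 (adjusted p = 0.28) and 0.048 (adjusted p = 0.715). With the gene length offset the pFUS_UC value of Dnajc30 turned to -0.28 (adjusted p = 0.0333). None of the 37 members with a promoter window held the palindromic site of the factor NRF1, a regulator of mitochondrial genes. It occurred in 1.073% of all genes with a window, and for so rare a site its absence from 37 genes tells little.

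Of the 17 genes for cytosolic and nuclear members, 13 did not pass in UC against AKI and 13 did not pass in pFUS_UC against AKI. The 23.5% called in each comparison lay below the 48.4% of all tested genes in UC and 44.0% in pFUS_UC. Dnaja1 and Dnajb1 are the main general Hsp70 partners of the cytosol, and Dnajb1 is a standard marker of the heat shock response. Dnaja1 had 163, 133, 132 and 189 CPM in pFUS_UC kidneys, 165, 157, 155 and 132 CPM in UC kidneys and 141, 125, 185 and 126 CPM in AKI kidneys, and Dnajb1 had 46.3, 30.5, 34.6 and 43.4 CPM in pFUS_UC kidneys, 38.6, 30.3, 47 and 38 CPM in UC kidneys and 36.8, 44.2, 52.9 and 47.8 CPM in AKI kidneys. In both genes the groups overlapped throughout. Dnaja1 differed by 0.079 (SE 0.15, adjusted p = 0.689) in UC and 0.096 (SE 0.15, adjusted p = 0.63) in pFUS_UC, and Dnajb1 by -0.24 (SE 0.16, adjusted p = 0.241) in UC and -0.23 (SE 0.16, adjusted p = 0.268) in pFUS_UC. Dnaja2, the third general class A member, had log2 fold changes of -0.061 (adjusted p = 0.627) in UC and -0.035 (adjusted p = 0.79) in pFUS_UC. With these standard errors, differences of 2 SE and somewhat more could have been missed. Dnajb9 in pFUS_UC, for example, did not pass at -0.28 with an SE of 0.12.

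The largest cytosolic change was that of Dnaja4, a class A member related to Dnaja1 that stress and sterol supply are known to regulate. Its promoter held 2 matches to a pair of heat shock units, GAANNTTC, which reads the same on both strands. Such a pair occurred in 9.036% of all genes with a window and in 5 of 37 members (Dnaja1, Dnaja4, Dnajb6, Dnajc27 and Dnajc5g). A core of 3 such units is GAA, TTC and GAA with 2 free bases after each of the first and second. It occurred in 0.6623% of genes with a window and in Dnajb6 alone among the members. The Dnaja4 stretch is shown as that of the most changed gene of this group (RefSeq, GRCm38.p6; chr9:54699409-54699558, plus strand), 150 bases in 5′ to 3′ order up to the annotated start, with both matches in capitals.
Dnaja4: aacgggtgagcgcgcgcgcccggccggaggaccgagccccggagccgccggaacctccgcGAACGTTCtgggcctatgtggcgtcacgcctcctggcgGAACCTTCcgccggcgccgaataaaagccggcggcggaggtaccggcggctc

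Dnaja4 (ENSMUSG00000032285; GRCm39 chr9:54606157-54623599, plus strand) had 6.49, 4.24, 2.48 and 3.45 CPM in pFUS_UC kidneys, 1.99, 3.38, 3.65 and 5.15 CPM in UC kidneys and 7.70, 8.10, 8.96 and 9.62 CPM in AKI kidneys. The lowest AKI library was above the highest library with cells, and within pFUS_UC the values spread more than 2-fold. Its log2 fold change was -1.27 (SE 0.30, adjusted p = 0.00409) in UC against AKI and -1.04 (SE 0.30, adjusted p = 0.0132) in pFUS_UC against AKI. Dnaja4 is overlapped on the other strand by Wdr61, which averaged 637 counts a library against 111 for Dnaja4. Wdr61 had log2 fold changes of 0.086 in UC and 0.062 in pFUS_UC and did not pass. The sources used here do not say whether the counting used strand.

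Dnajc7, Dnajc2 and Dnajc17 rose in UC, and Dnajc7, Dnajc2 and Dnajc12 rose in pFUS_UC. Dnajc7, which passes clients between Hsp70 and Hsp90, had 81.5, 82.5, 85.5 and 79.1 CPM in pFUS_UC kidneys, 80.7, 96, 83.9 and 84.5 CPM in UC kidneys and 76.4, 70.7, 58 and 63.3 CPM in AKI kidneys. The AKI values were below the others, by a margin that was small beside the spread. It rose by 0.36 (SE 0.10, adjusted p = 0.0095) in UC and 0.29 (SE 0.10, adjusted p = 0.0306) in pFUS_UC, and the pFUS_UC call ended without any one of AKI replicates 3 and 4 and pFUS_UC replicates 2 and 3 (adjusted p from 0.0646 to 0.0884). With no filter both calls of Dnajc7 ended (adjusted p = 0.0649 in UC and 0.161 in pFUS_UC). Dnajc2, a ribosome-bound J protein known as MPP11, rose by 0.33 (SE 0.11, adjusted p = 0.0207) in UC and 0.28 (SE 0.11, adjusted p = 0.0436) in pFUS_UC. Its UC call ended when AKI 3, AKI 4, UC 1 or UC 3 was left out (adjusted p from 0.0504 to 0.0620), and its pFUS_UC call when any of AKI 2, 3 and 4 and pFUS_UC 2, 3 and 4 was left out (0.0793 to 0.117). With no filter both calls of Dnajc2 ended (adjusted p = 0.151 in UC and 0.235 in pFUS_UC). Its pFUS_UC call also ended with only the groups compared (0.0541) and a replicate block (0.0772). With limma on log2(FPKM + 1) or log2(FPKM + 0.1) it ended as well (0.0582 and 0.0548). No single library ended the call of Dnajc7 in UC.

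Dnajc17, a nuclear protein tied to splicing, averaged 6.60 ± 1.60 CPM in pFUS_UC, 9.07 ± 0.461 CPM in UC and 5.22 ± 1.36 CPM in AKI. It rose in UC by 0.80 (SE 0.21, adjusted p = 0.00773) and was at 0.34 (SE 0.21, adjusted p = 0.215) in pFUS_UC. With the gene length offset the UC value was 0.42 (adjusted p = 0.119). Zfyve19 overlaps it on the other strand with a mean of 637 counts against 139 for Dnajc17, and Zfyve19 also rose, by 0.40 in UC (adjusted p = 0.00334) and 0.37 in pFUS_UC (adjusted p = 0.00660); the part of shared reads in this was not tested. With the gene length offset Dnajb4 was called higher in both comparisons, as given above, and Dnajc24 lower in pFUS_UC (-0.48, adjusted p = 0.0472). In the fit without it these and the other cytosolic and nuclear genes (Dnajb2, Dnajb4, Dnajb5, Dnajb6, Dnajc8, Dnajc9, Dnajc21, Dnajc24 and Dnajc27) did not pass, with log2 fold changes between -0.15 and 0.22 in UC and between -0.27 and 0.30 in pFUS_UC.

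**Figure D3:**
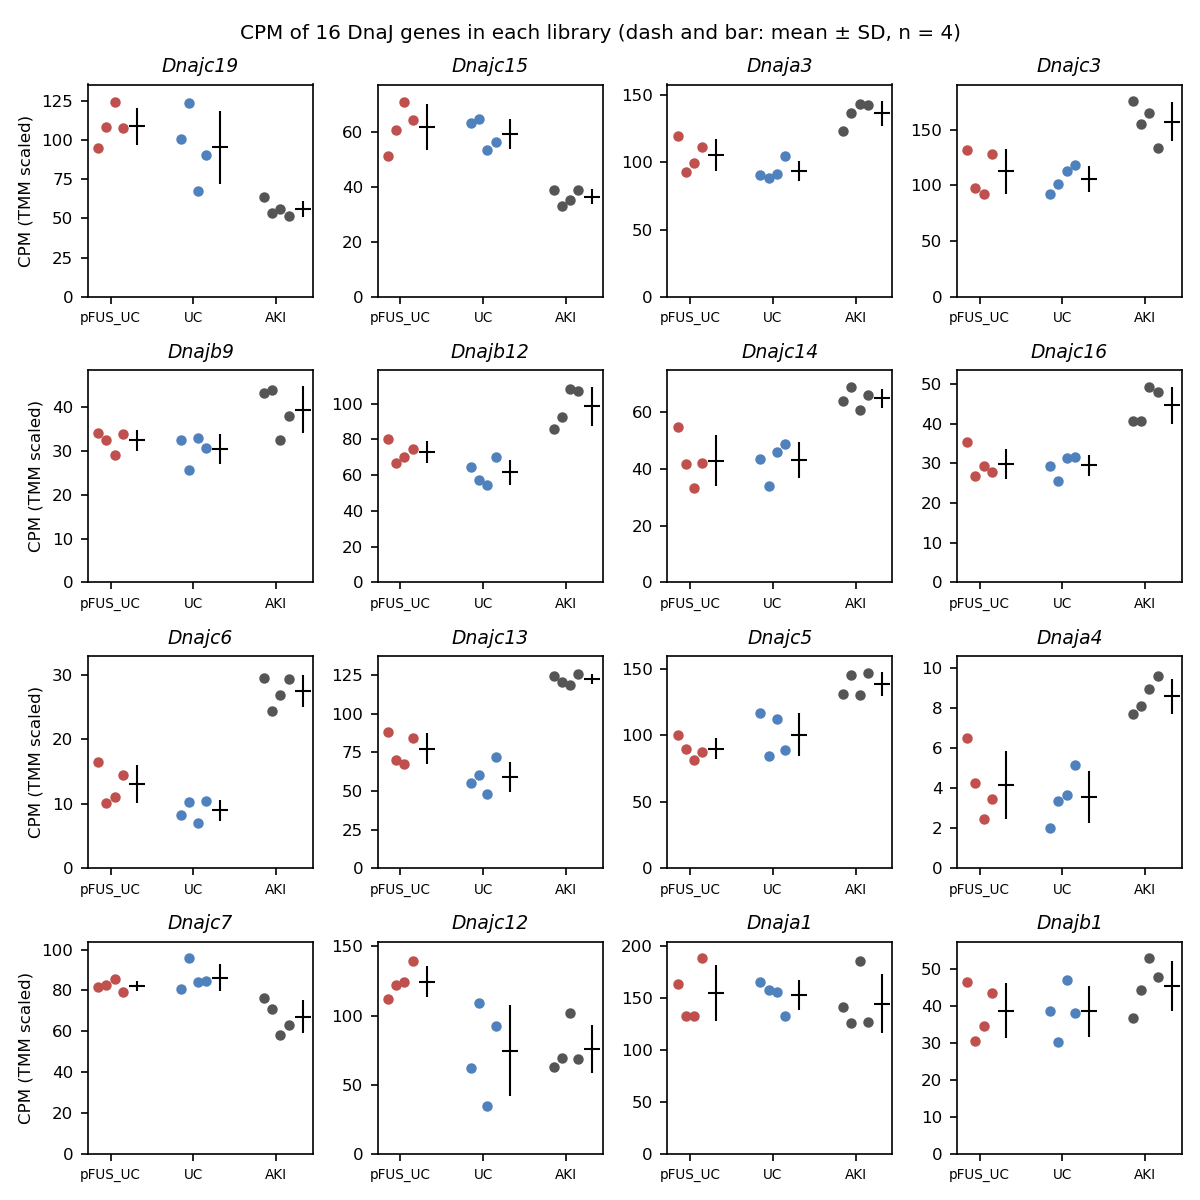
CPM of 16 DnaJ genes (y axes, from 0) in each of the 4 libraries of pFUS_UC, UC and AKI; points are libraries and dash and bar are mean ± SD. Dnajc19 and Dnajc15 have their 4 AKI libraries below the others, Dnajc6, Dnajc13, Dnajb12 and Dnaja4 have them above, and Dnaja1 and Dnajb1 overlap in all groups.

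Dnajc12, a J protein that keeps phenylalanine hydroxylase and its sister enzymes folded, was the 1 member whose pFUS_UC and UC libraries did not overlap. It had 112, 122, 124 and 139 CPM in pFUS_UC kidneys, 61.8, 109, 34.9 and 92.7 CPM in UC kidneys and 62.8, 69.6, 101 and 68.8 CPM in AKI kidneys. The pFUS_UC libraries lay together above all 8 others, and the UC libraries spread more than 3-fold. Against AKI it differed by -0.023 (SE 0.27, adjusted p = 0.951) in UC and rose by 0.72 (SE 0.27, adjusted p = 0.0448) in pFUS_UC. Against UC the pFUS_UC value was 0.74 (SE 0.27, unadjusted p = 0.0164, adjusted p = 0.597 by edgeR), which did not pass. The pFUS_UC call against AKI ended without any one of AKI replicates 1, 2 and 4 and of the 4 pFUS_UC replicates (adjusted p from 0.0543 to 0.103). It also ended in edgeR with size factors from DESeq2 (adjusted p = 0.0501) and with a replicate block (0.0670). With limma on log2(FPKM + 1) or log2(FPKM + 0.1) it ended as well (0.0579 and 0.0607).

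Between pFUS_UC and UC, which differ by the ultrasound, edgeR called no DnaJ gene and no gene of the 16947 tested (0% called); 1342 genes had an unadjusted p under 0.05. DESeq2 called no DnaJ gene either, and 44 genes in all. Of the 41 tested members, 5 (12.2%) had an unadjusted p under 0.05, beside 7.92% of all tested genes. Groups did not overlap for 1 member, Dnajc12, and for 3.90% of all tested genes. The members with the smallest p were Dnajc13 at 0.39 (SE 0.13, adjusted p = 0.591), Dnajc6 at 0.54 (SE 0.18, adjusted p = 0.591), Dnajc12, Dnajc17 at -0.46 (SE 0.21, adjusted p = 0.627) and Dnajb12 at 0.24 (SE 0.11, adjusted p = 0.629). For Dnajc13, Dnajc6 and Dnajb12 the pFUS_UC means lay between those of UC and AKI. The median over the members was 0.026, and single values ran from -0.96 (Dnajb13, near the detection limit) to 0.74 (Dnajc12). These values do not show that the 2 groups were alike.

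Dnajc22, Dnajc4, Dnajc25 and Dnajc28 were placed in no compartment. Dnajc22, a membrane protein whose fly relative Wurst acts in clathrin-mediated endocytosis, had 45.3, 39.7, 46.3 and 42.2 CPM in pFUS_UC kidneys, 46.7, 49.5, 40.6 and 39 CPM in UC kidneys and 67.2, 65.5, 79.7 and 79.3 CPM in AKI kidneys. The AKI values were all above the others, and it fell, with log2 fold changes of -0.73 (SE 0.11, adjusted p = 0.000186) in UC and -0.75 (SE 0.11, adjusted p = 0.000237) in pFUS_UC. Dnajc4 had 34.2 to 39.6 CPM in pFUS_UC, 29 to 39.7 CPM in UC and 21.7 to 26.6 CPM in AKI and rose by 0.48 (SE 0.11, adjusted p = 0.00357) in UC and 0.53 (SE 0.11, adjusted p = 0.00235) in pFUS_UC. With the gene length offset its values were 0.086 in UC (adjusted p = 0.569) and 0.10 in pFUS_UC (adjusted p = 0.505). Dnajc28 did not pass, at -0.47 (adjusted p = 0.105) in UC and 0.020 (adjusted p = 0.95) in pFUS_UC, and it was called in UC without UC replicate 4 (-0.72, adjusted p = 0.0133).

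Dnajc25 rose in both comparisons with AKI. Its promoter was the only one among the 37 members with the core of the unfolded protein response element, TGACGTGG. This core occurred in 0.7142% of all genes with a window. It is the motif for which the stretch is shown (RefSeq, GRCm38.p6, chr4:59003043-59003192, plus strand, 5′ to 3′, match in capitals).
Dnajc25: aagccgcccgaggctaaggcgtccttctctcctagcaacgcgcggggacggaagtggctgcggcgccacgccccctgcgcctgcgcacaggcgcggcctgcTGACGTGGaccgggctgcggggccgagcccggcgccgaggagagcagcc
Dnajc25 had 9.21, 9.92, 10.3 and 8.47 CPM in pFUS_UC kidneys, 10.5, 10.7, 9.47 and 6.35 CPM in UC kidneys and 6.74, 6.34, 6.49 and 6.12 CPM in AKI kidneys. UC overlapped AKI, and pFUS_UC did not. It rose by 0.52 (SE 0.17, adjusted p = 0.0221) in UC and 0.56 (SE 0.17, adjusted p = 0.0175) in pFUS_UC, and the UC call ended when AKI 4, UC 1 or UC 2 was left out (adjusted p from 0.0555 to 0.0678). With no filter both calls ended (adjusted p = 0.0850 in UC and 0.0594 in pFUS_UC). The direction of Dnajc25 was opposite to that of Dnajc3 and Hspa5, the other genes shown with a motif of this response.

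Levels can be compared between genes only per length, and the deposited FPKM values (counts per gene length and library total) serve for that. Over the 12 libraries Dnaja2 had the highest mean, 50.6 FPKM, followed by Dnajc22 at 29, Dnaja3 at 28.7, Dnajb11 at 27.6 and Dnajc4 at 25.9 FPKM. Below Dnaja2 the order differed between groups: Dnajc4 came next in pFUS_UC (29.1 ± 2.07 FPKM) and in UC (28.3 ± 3.73 FPKM), and Dnajc22 in AKI (39.8 ± 4.58 FPKM), while Dnajc22 was at 23.4 ± 1.68 FPKM in pFUS_UC and 23.8 ± 2.78 FPKM in UC. In pFUS_UC the SD of Dnajc4 reached the mean of Dnajc12, and in UC it reached that of Dnajb11. Dnajc19 was at 21.6 FPKM and its relative Dnajc15 at 8.08 FPKM. The most changed genes were low: Dnajc6 had 2.19 ± 0.501 FPKM in pFUS_UC, 1.52 ± 0.280 in UC and 4.68 ± 0.388 in AKI, and Dnaja4 had 1.16 ± 0.474, 0.987 ± 0.359 and 2.42 ± 0.268 FPKM in the same order (SD, n = 4 each). Dnajc27 (0.981 FPKM) and the cilia gene Dnajb13 (0.300 FPKM) were the lowest tested. Dnajb13 and Dnajb3, the tested genes of the testis and cilia group, did not pass in either comparison with AKI. Dnajb13 was at 1.05 (adjusted p = 0.0983) in UC and was called there without UC replicate 4 (1.32, adjusted p = 0.0314). On the other strand, Ucp2 overlaps Dnajb13 with a mean of 5815 counts against 16.2, and Ugt1a2 overlaps Dnajb3 with 4030 against 35.4. The part of shared reads in the values of Dnajb13 and Dnajb3 was not tested. Dnajb7, a testis gene, had 22 counts over all libraries and Dnajb8 had 3, and neither was tested.

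**Figure D4:**
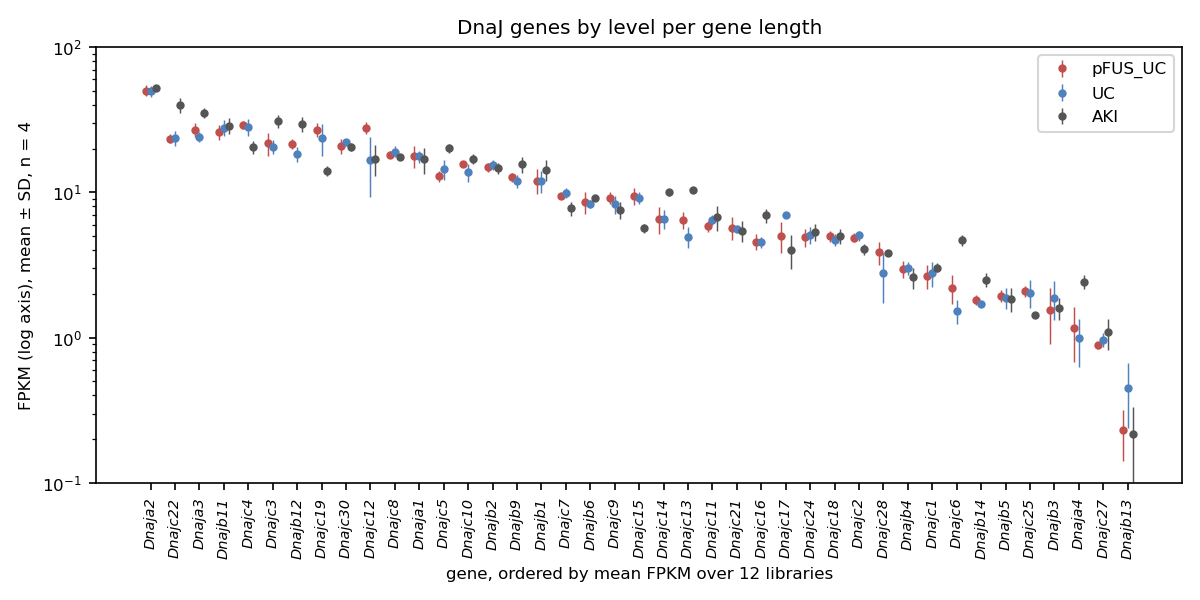
FPKM (y axis, log scale) of the 41 tested DnaJ genes, ordered by their mean over the 12 libraries, with mean ± SD of the 4 libraries of pFUS_UC, UC and AKI. Dnaja2 stands highest and Dnajb13 lowest, and Dnajc6, Dnajc19 and Dnaja4 show clear gaps between AKI and the groups with cells.

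The tested genes of the Hsp70 family list, which also holds Hsp110-type proteins and distant members, fell or did not pass, and none rose. Of 14 tested Hsp70 family genes, 8 fell in UC and 6 in pFUS_UC against AKI, with medians of -0.42 in UC and -0.43 in pFUS_UC; over all tested genes 24.3% were lower in UC and 22.1% in pFUS_UC. Hyou1, an Hsp110-type partner of Hspa5 in the ER, changed by -0.98 (SE 0.19, adjusted p = 0.000919) in UC and -1.20 (SE 0.19, adjusted p = 0.000343) in pFUS_UC, Hspa4, a cytosolic Hsp110-type protein, by -0.51 (SE 0.11, adjusted p = 0.00207) and -0.42 (SE 0.11, adjusted p = 0.00755), and Hspa2 by -0.95 (SE 0.22, adjusted p = 0.00353) and -0.91 (SE 0.22, adjusted p = 0.00551). Hspa12a, a distant family member, had -1.16 (adjusted p = 0.000698) in UC and -0.62 (adjusted p = 0.0281) in pFUS_UC, where the call ended when AKI 2, AKI 3 or any of pFUS_UC 1, 2 and 3 was left out (adjusted p from 0.0601 to 0.0796). With the gene length offset the pFUS_UC value of Hspa12a was -0.42 (adjusted p = 0.120). The cytosolic Hspa8, Hspa1a and Hspa1b did not pass in either comparison, with Hspa8 at 0.23 (adjusted p = 0.336) in UC and 0.31 (adjusted p = 0.205) in pFUS_UC. Hspa1a reached 65.6 CPM in UC replicate 3, against 2.89 to 8.32 CPM in the other UC libraries and 12.9 to 20 CPM in AKI. In that library Hspa1b (130 CPM, against 24.6 to 49.7 in the other UC libraries), Hsph1 (172 against 79.8 to 86.6) and Dnajb1 (47 against 30.3 to 38.6) were also highest. Hspa8 and Dnaja1 were highest in UC replicate 1 instead. Without UC replicate 3 Dnajb1 still did not pass, and for Hspa1a, Hspa1b and Hsph1 this was not examined.

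Among 9 genes listed as nucleotide exchange factors, 2 rose and 2 fell in UC, and 1 rose and 1 fell in pFUS_UC. This list does not count the Hsp110-type genes, such as Hyou1 and Hspa4, which fell as given above. The UC shares, 22.2% in each direction, were near the 24.1% higher and 24.3% lower of all tested genes, and the pFUS_UC shares of 11.1% were below the 21.9% and 22.1%. Bag1, a cytosolic exchange factor, rose by 0.50 (SE 0.11, adjusted p = 0.00258) in UC and 0.43 (SE 0.11, adjusted p = 0.00706) in pFUS_UC, and with the gene length offset its values were 0.14 in UC (adjusted p = 0.388) and 0.037 in pFUS_UC (adjusted p = 0.832). Bag3, the stress-induced exchange factor of selective autophagy, fell, with log2 fold changes of -0.72 (SE 0.19, adjusted p = 0.00689) in UC and -0.74 (SE 0.19, adjusted p = 0.00707) in pFUS_UC. Without UC replicates 1 and 2 the UC value of Bag3 was -0.51 (adjusted p = 0.0649). Bag5, the other gene that fell in UC, was at -0.40 (adjusted p = 0.0421) there and -0.24 (adjusted p = 0.219) in pFUS_UC, and its UC call ended when any AKI library, UC 2 or UC 3 was left out (adjusted p from 0.0562 to 0.111) and with only the groups compared (0.0595). Sil1, an exchange factor of Hspa5, rose in UC by 0.54 (SE 0.18, adjusted p = 0.0223) and was at 0.20 (adjusted p = 0.376) in pFUS_UC. Its UC call ended when AKI 1, AKI 2, UC 1 or UC 2 was left out (adjusted p from 0.0627 to 0.0761). Without both UC replicates 1 and 2 the UC value of Sil1 was 0.21 (adjusted p = 0.376). Of 4 other genes for J-domain proteins outside the DnaJ symbols, Gak, the broadly expressed relative of auxilin, fell, with log2 fold changes of -0.74 (SE 0.13, adjusted p = 0.000501) in UC and -0.82 (SE 0.13, adjusted p = 0.000377) in pFUS_UC. Hscb, the J protein of iron-sulfur cluster assembly in mitochondria, rose by 0.45 (SE 0.13, adjusted p = 0.0128) in UC and 0.59 (SE 0.13, adjusted p = 0.0032) in pFUS_UC, and with the gene length offset its values were -0.036 in UC (adjusted p = 0.821) and 0.064 in pFUS_UC (adjusted p = 0.685). Without UC replicates 1 and 2 the UC value of Hscb was 0.41 (adjusted p = 0.0741). Gak and Hscb were the only genes called of these 4, 25% in each direction, near the shares of all tested genes given above. Of 3 genes for adaptors and the ligase Stub1 (CHIP), none passed in UC and Stub1 fell in pFUS_UC, with a log2 fold change of -0.33 (SE 0.11, adjusted p = 0.029). This was 33.3% of the 3 genes, beside 22.1% of all tested genes lower in pFUS_UC. The Stub1 call ended when AKI 2, AKI 4 or any of pFUS_UC 2, 3 and 4 was left out (adjusted p from 0.0693 to 0.0809) and with no filter (0.0501).

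Gene length and overlapping genes limit how closely single values can be read. The tested members had a median listed length of 4542 bases, against 3871 bases over all tested genes. Those called lower in UC had a median of 5141 bases and those called higher 4542 bases, and in pFUS_UC the medians were 5926 bases and 4542 bases. Spearman's rho between length and log2 fold change over the 41 members was -0.24 in UC and -0.19 in pFUS_UC against AKI, beside -0.32 and -0.33 over all tested genes; genes share their libraries, and no test is attached. Of the tested members, 11 were overlapped by another gene with a mean of at least 100 counts. Dnajc19 lies across from Fxr1 (914 counts on average, against 1737 for Dnajc19), whose log2 fold change was 0.38 in UC and 0.33 in pFUS_UC, smaller than that of Dnajc19. Dnaja3 shares its strand with Vasn (703 counts on average, against 2268 for Dnaja3), which fell, with log2 fold changes of -0.67 in UC and -0.53 in pFUS_UC. A processed pseudogene of Dnajc19 held 1543 counts over the 12 libraries, that of Dnajb6 held 297 and that of Dnaja1 held 1, and the sources used here do not say how reads shared with them were counted.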

How the data were processed

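The authors deposited 2 tables for the same 12 kidney RNA libraries: raw counts per gene, with symbols, coordinates (GRCm39) and listed gene lengths, and FPKM values. HTSeq, DESeq2 and GRCm39 (mm39) are named, per the submitters' processing notes, with no versions; the sources used here give neither aligner nor strandedness. In the deposited FPKM table each value equals the count divided by the listed length and by 1 scaled total per sample. The tables list genes in different orders and were joined by gene identifier. The deposited gene lengths, in bases, served only for the length offset and the length comparison.

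Counts of all 12 libraries (17.3 to 25.2 M (mega) each; a limit of 3 counts is 0.119 to 0.173 CPM) were fitted with edgeR 4.0.16 in R 4.3.3: filterByExpr (minimum count 10, minimum total 15), TMM scaling, quasi-likelihood F-tests with 9 residual degrees of freedom, and Benjamini-Hochberg adjustment over 16947 genes at 0.05. SE is the absolute log2 fold change over the square root of F. CPM are TMM-scaled. The script was checked on simulated counts. The family members, compartments, pathway and marker lists, alternatives and tests were chosen with earlier results of these data known. Named are up to 8 members per direction and comparison with the largest change past the threshold and at least 5 CPM in the higher group, 5 with the smallest p where none pass, Dnaja1, Dnajb1, Dnaja3, Dnajc19, Dnajb9 and Dnajc3, and up to 3 genes per pathway list and direction; other members are given for completeness and were named after their values were seen. Alternatives were a fit with DESeq2 1.42.0, edgeR with size factors from DESeq2, testing unfiltered genes, a filter of 1 CPM in 4 samples, only the groups compared, a replicate block, a gene length offset (spline with 6 degrees of freedom per library), limma 3.58.1 on log2(FPKM + 1) or log2(FPKM + 0.1), each library left out, and UC replicates 1 and 2 left out, the libraries with the highest mitochondrial shares. Promoters are RefSeq windows of GRCm38.p6, matched by symbol for 37 of 45 members; no coordinate was moved between builds.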

Additional observations from a re-analysis of the deposited data

Results flagged for a closer look

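In 4 of 159 groups of 4 libraries, 1 library stood far from the other 3 beside the spread of its group. Chance gives about 5% of such groups. The 41 tested members and the pathway genes named by rule were examined, and other pathway genes, such as Hspa1a, were not. Dnajb14 in pFUS_UC replicate 3 was at 25.4 CPM, against 29.6 to 30.3 CPM in the other pFUS_UC libraries. Dnajc1 in UC replicate 3 was at 42.1 CPM, against 28.7 to 29.5 CPM in the other UC libraries. Dnajc18 in UC replicate 3 was at 22.4 CPM, against 26.8 to 27.2 CPM in the others. Stub1 in pFUS_UC replicate 1 was at 42.8 CPM, against 34.2 to 35.4 CPM in the other pFUS_UC libraries.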

How the results depend on the processing

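Of the 20 members called in UC against AKI, 10 stayed called under all 18 alternatives, and of the 18 in pFUS_UC against AKI, 12 stayed called under all 17. Without UC replicates 1 and 2, 12 members were called in UC against AKI, 3 of them higher, and 5414 genes in all. With no filter, 4 members were higher in UC and 4 in pFUS_UC against AKI. Leaving out 1 library gave as few as 4 higher members in pFUS_UC (without AKI replicate 4, pFUS_UC replicate 2 or pFUS_UC replicate 3) and otherwise 5 to 6. In pFUS_UC against UC, the count of 0 genes became 44 with DESeq2, 13 with no filter, 2 with the replicate block and, leaving out 1 library, 0 to 1 (1 without pFUS_UC replicate 4). The gene length offset turned Hscb in UC to -0.036 and Dnajc30 in pFUS_UC to -0.28. Same-numbered libraries did not deviate together (correlations from -0.17 to 0.15), so the numbers were not read as pairs; with the replicate block 20 members were called in UC and 16 in pFUS_UC against AKI. Apart from what the alternatives themselves change, the cause of these shifts was not tested. With 4 libraries a group, small changes and genes near 1 CPM are weakly resolved.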
